A study of Mus musculus with 18 samples.

Results

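Collagen genes were taken as every gene whose symbol is Col, a type number, a and a chain number. They made up 44 of the 24062 genes in the table, from Col1a1 to Col28a1. Of these, 11 encode fibrillar chains, 6 encode the type IV chains of the basement membrane and 27 belong to other types. After a filter on low counts, 29 collagen genes were among the 14271 genes tested (8 fibrillar, 3 basement membrane and 18 other).

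The tumours came from male C57BL/6 mice that all carried the ApcMin/+ allele, a truncating germline mutation of the Wnt pathway gene Apc that gives rise to intestinal adenomas. The labels give 3 Macrod2 genotypes: ApcMin/+/Macrod2-/- (hom, 6 tumours), ApcMin/+/Macrod2-/+ (het, 6 tumours) and ApcMin/+/Macrod2+/+ (wt, 6 tumours). The source label gives large intestine for 17 tumours and small intestine for het 4, which was set aside, leaving 5 het tumours in all comparisons. The mice are numbered within each genotype, with 1 tumour per mouse, and no age is given in the labels. The question of the design was how expression differs between tumours by Macrod2 genotype.

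Collagens are triple helices of 3 chains. Fibrillar types I, III and V build the fibres of stroma, type IV forms the sheet-like network under epithelia and around vessels, and type VI makes beaded microfilaments beside both. The fibril-associated collagens (FACIT, types IX, XII, XIV, XVI and relatives) decorate fibril surfaces. In the gut most fibrillar collagen is made by fibroblasts, type IV by several cell types, and collagen-rich stroma is a common feature of intestinal tumours.

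Partner chains can be encoded side by side or on separate chromosomes. The start regions of 4 abundant members are shown. Across tumours Col4a1 varied together with Col4a2, and Col1a2 with Col3a1. No window was available for Col1a1 or Col9a3. Col4a1 and Col4a2, whose products form the main type IV network, lie head to head on chromosome 8. Their RefSeq start sites are 21 bases apart and the windows share chr8:11312777-11312854, 78 bases with a GC content of 73.1%. In the GENCODE annotation the exons of Col4a1 and Col4a2 overlap by 22 bases on opposite strands. Col1a2 lies on chromosome 6 and its partner Col1a1 on chromosome 11. Col3a1 lies on chromosome 1, tail to tail with Col5a2 at a distance of 24.6 kb. Each window runs from 250 bases before to 50 bases after the start site, in the RefSeq annotation of GRCm38.p6, on the strand of the gene. Capitals mark the CCAAT box, the GC box (GGGCGG) and the TATA box (TATAAA) or their reverse complements. The windows are chr8:11312777-11313076 on the minus strand for Col4a1, chr8:11312555-11312854 on the plus strand for Col4a2, chr6:4505368-4505667 on the plus strand for Col1a2 and chr1:45311288-45311587 on the plus strand for Col3a1.
Col4a1: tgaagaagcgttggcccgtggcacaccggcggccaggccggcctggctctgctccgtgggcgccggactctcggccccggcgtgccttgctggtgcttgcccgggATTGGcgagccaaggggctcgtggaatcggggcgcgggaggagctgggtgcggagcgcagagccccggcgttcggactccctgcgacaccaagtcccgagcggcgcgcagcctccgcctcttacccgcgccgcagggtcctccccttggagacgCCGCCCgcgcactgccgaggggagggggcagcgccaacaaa
Col4a2: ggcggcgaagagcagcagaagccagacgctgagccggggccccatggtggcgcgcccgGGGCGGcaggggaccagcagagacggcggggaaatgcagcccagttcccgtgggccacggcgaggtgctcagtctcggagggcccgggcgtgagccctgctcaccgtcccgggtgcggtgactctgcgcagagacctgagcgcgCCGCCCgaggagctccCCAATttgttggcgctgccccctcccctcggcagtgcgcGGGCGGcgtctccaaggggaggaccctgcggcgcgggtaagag
Col1a2: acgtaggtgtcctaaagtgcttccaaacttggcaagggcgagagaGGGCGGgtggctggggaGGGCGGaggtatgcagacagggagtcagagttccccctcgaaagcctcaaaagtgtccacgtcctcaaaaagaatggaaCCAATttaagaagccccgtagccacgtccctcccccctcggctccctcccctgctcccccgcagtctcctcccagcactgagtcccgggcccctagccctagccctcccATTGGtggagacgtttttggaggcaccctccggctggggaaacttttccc
Col3a1: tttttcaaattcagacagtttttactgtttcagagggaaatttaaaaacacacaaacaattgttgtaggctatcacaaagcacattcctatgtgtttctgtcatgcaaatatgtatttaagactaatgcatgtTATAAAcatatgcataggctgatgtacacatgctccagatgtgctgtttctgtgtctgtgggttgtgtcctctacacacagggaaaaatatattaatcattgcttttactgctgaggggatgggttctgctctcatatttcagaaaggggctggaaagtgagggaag

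The Col4a2 window held a CCAAT match 32 bases before the start site and 3 GGGCGG matches, and the Col4a1 window 1 CCAAT and 1 GGGCGG match. The GGGCGG match of Col4a1, 9 bases after its start site, and that of Col4a2 at 7 bases after its own are the same bases. They lie in the shared stretch and are counted for both windows. Col1a2 had 2 matches to each of these motifs. Col3a1 had neither, and a TATAAA match 117 bases before the start site. Counting both strands, CCAAT occurred in 13 of 38 collagen windows (34.2%, against 37.4% of 32817 windows of all genes), and TATAAA in 5 (13.2%, against 13.6%). GGGCGG occurred in 23 (60.5%, against 35.6%). The 38 windows cover 35 of the 44 genes. These matches describe letters in the windows and were not tested as sites.

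Library totals were between 13529204 and 20857918 counts. Macrod2 itself had 0.158 ± 0.145 CPM (counts scaled to the library total with TMM factors) in hom, 2.20 ± 0.749 in het and 3.74 ± 0.605 in wt tumours (SD), the order of the labels. Tumours wt 1 and wt 2, labelled large intestine, had Gata4 at 171 and 179 CPM, close to the 166 CPM of the small intestinal het 4 and above the 0.282 to 47.3 CPM of the other 15. Gata4 is a transcription factor of the proximal small intestine. In wt 3, 27.0% of counts fell on the ribosomal RNA gene Rn45s. All markers of the epithelium list were detected in every tumour, with a summed level of 12816 to 15195 CPM in hom, 12442 to 15786 CPM in het and 10849 to 18771 CPM in wt tumours.

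RPKM (reads per kilobase of gene, scaled to the library total) allows levels to be compared between genes. By this measure the collagen with the highest mean was Col9a3, a chain of the FACIT type IX, at 44.3 ± 14.2 RPKM over the 17 large intestinal tumours (SD). Type IX collagen is best known from cartilage, where it coats type II fibrils. Col9a3 ranked above every other collagen in 16 of the 17 tumours, and Col3a1 did so in hom 6. The partner chain Col9a2 averaged 9.87 ± 2.57 RPKM, whereas Col9a1, the remaining chain of the classical heterotrimer, reached only 0.340 ± 0.196 RPKM. Col2a1, the type II chain, had at most 15 counts in a tumour. Col9a3 shares 234 exon bases with Tcfl5 on the opposite strand, and the strand setting of the counting is not given. Tcfl5 had 0 to 10 counts per tumour, against 1297 to 4136 counts for Col9a3.

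Among fibrillar chains, Col3a1, the type III chain, averaged 21.95 ± 7.47 RPKM, Col1a1 17.8 ± 5.68 RPKM and Col1a2 11.6 ± 3.41 RPKM. Col5a2, a chain of the fibril-nucleating type V, averaged 3.73 ± 1.37 RPKM. The ranges of neighbours in this order overlapped between tumours. Within single tumours the order was steadier. The ratio of Col1a1 to Col1a2 was 1.14 to 1.85 over the 17 tumours, and that of Col3a1 to Col1a1 0.962 to 1.95 (0.1 added to each RPKM). Of the basement membrane chains, Col4a1 averaged 16.7 ± 5.68 RPKM and Col4a2 9.66 ± 3.46 RPKM. Col4a5 averaged 0.315 ± 0.120 RPKM, and Col4a3, whose product belongs to specialised basement membranes such as that of the glomerulus, 0.0351 ± 0.0146 RPKM. Of the other types, Col18a1, the precursor of endostatin, averaged 14.9 ± 2.41 RPKM, Col6a2 8.51 ± 4.59 RPKM and Col6a1 8.37 ± 3.58 RPKM.

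The family was steeply graded. In mean level 21 genes exceeded 1 RPKM and 6 exceeded 10 RPKM, the 10 highest held 83.6% of the summed RPKM, and 16 lay under 0.1 RPKM. The 15 untested members had at most 26 counts in any tumour, and Col19a1 had 0 in all 18. Among them was Col17a1, the transmembrane collagen of hemidesmosomes, with 0 to 6 counts per tumour. The 8 listed hemidesmosome partners of Col17a1, such as Itgb4 and Lamb3, all passed the same filter.

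**Figure D1:**
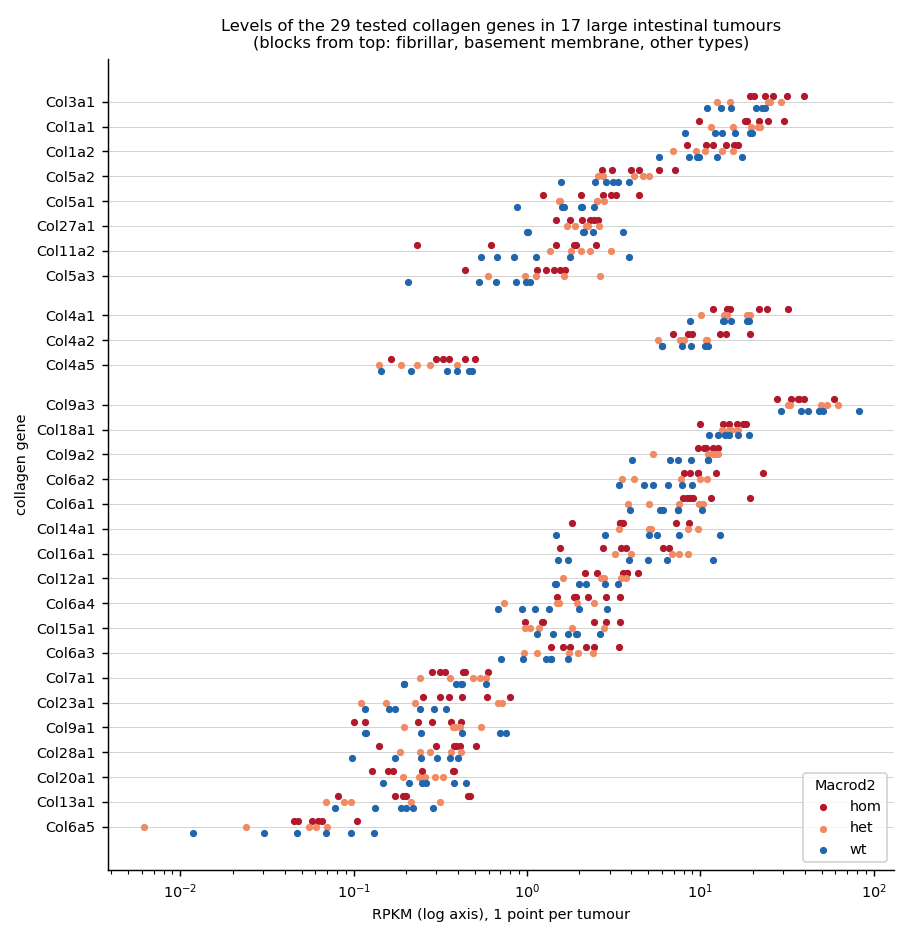
RPKM of the 29 tested collagen genes (log axis), 1 point per large intestinal tumour, with hom, het and wt in rows from top to bottom within each gene. Col9a3 stands highest with a mean of 44.3 RPKM, and the genotypes overlap.

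The summed collagen level was 213 ± 48.3 RPKM in hom, 195 ± 36.6 RPKM in het and 179 ± 37.7 RPKM in wt tumours (SD, n = 6, 5 and 6). In hom tumours it had a minimum of 144 RPKM (hom 3), a median of 218 and a maximum of 283 RPKM (hom 6). The het tumours had 232, 197, 169, 229 and 148 RPKM, and the wt tumours a minimum of 143, a median of 166 and a maximum of 249 RPKM (wt 6). The genotypes overlapped throughout. Fibrillar chains held 33.7 ± 2.45% of the sum in hom, 31.6 ± 4.73% in het and 28.7 ± 4.73% in wt tumours. Basement membrane chains held 14.7 ± 2.62%, 12.5 ± 2.74% and 13.5 ± 4.16% in hom, het and wt. The remaining types held 51.6 ± 4.93%, 55.9 ± 6.94% and 57.8 ± 5.74% in hom, het and wt. These shares are descriptive, since a sum over the members carries no test here. Fewer collagen-producing cells and less collagen RNA per cell cannot be told apart in such bulk tumour RNA.

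**Figure D2:**
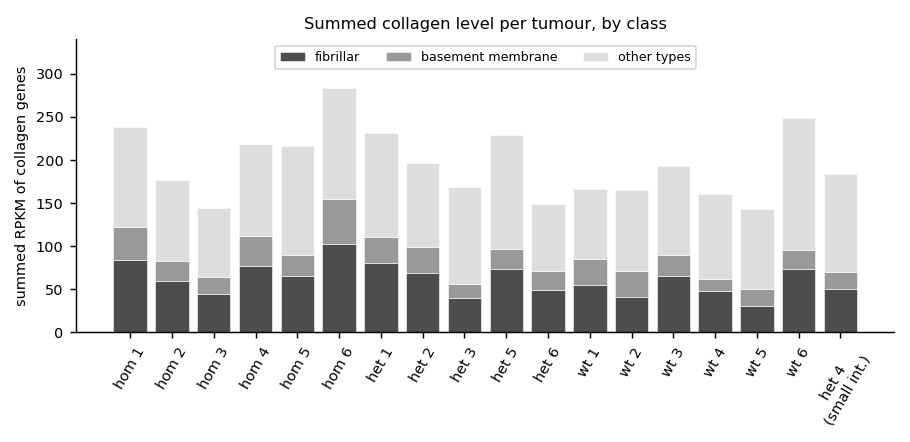
Summed RPKM of all 44 collagen genes in each tumour, stacked by class, in the order hom, het, wt, with the small intestinal het 4 last. The tallest bar is hom 6 at 283 RPKM and the shortest is wt 5 at 143 RPKM.

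No collagen gene passed an adjusted p of 0.05 in any of the 3 genotype comparisons (edgeR quasi-likelihood test, Benjamini-Hochberg over 14271 genes). Among all genes tested, 0.00701% were called for hom versus wt, 0% for het versus wt and 0.00701% for hom versus het, the called gene being Macrod2. DESeq2 and limma-voom also called 0 collagen genes in each comparison. The hom versus wt and het versus wt comparisons share the wt tumours, so their values are given side by side without a measure of likeness.

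In hom against wt tumours, 22 of 29 collagen genes had a higher estimate (45.7% of all genes did), with a median log2 fold change of 0.40 against −0.03 for all genes. At an unadjusted p under 0.05, 8 were higher and 0 lower, where 16% of all genes passed, 5.35% higher and 10.6% lower. DESeq2 counted 9 higher (all genes 7.2%) and limma-voom 8 (6.29%). The 8 were Col6a2, Col6a3, Col5a2, Col12a1, Col3a1, Col6a1, Col5a1 and Col23a1, and their smallest adjusted p was 0.261. By class, 7 of 8 fibrillar, 3 of 3 basement membrane and 12 of 18 other genes had higher estimates. Type VI had 4 of 5 higher with a median of 0.63, whereas the FACITs had 5 of 7 lower with a median of −0.34. Without wt 1 and wt 2, 22 of 29 again had a higher estimate (50.6% of all genes did), 21 of them in both fits. At the unadjusted threshold 8 collagens were then higher and 2 lower, where 11.6% of all genes were higher and 13.0% lower. Of the 8, 5 were in both fits, Col4a1, Col4a2 and Col6a4 having taken the place of Col3a1, Col5a1 and Col12a1. The type VI chains then had 5 of 5 higher with a median of 0.98, the FACITs a median of −0.52 and the fibrillar genes 6 of 8 higher with a median of 0.50. Single tumours weighed on the count of 8. It was 5 without hom 1 (all genes 6.2%), 2 without hom 6 (4.72%), 3 without wt 4 (4.48%) and 2 without wt 5 (5.24%). In the other direction it was 11 without hom 3 (4.16%) and 10 without wt 3 (9.44%).

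Type VI chains had the smallest p of the family. Col6a2 had a minimum of 29.9, a median of 36.2 and a maximum of 86.2 CPM in hom tumours. The het tumours had 40.5, 37.1, 15.4, 28.9 and 13.2 CPM, and the wt tumours 12.7, 22.1 and 33.6 CPM as minimum, median and maximum. In 4 of the 6 hom tumours Col6a2 was above every wt tumour, and hom 6 stood highest. The log2 fold change for hom versus wt was 0.92 ± 0.32 (SE, adjusted p = 0.261). Col6a1 averaged 43.0 ± 17.3 CPM in hom and 27.1 ± 8.34 CPM in wt tumours, a log2 fold change of 0.63 ± 0.28 (adjusted p = 0.296). Col6a3, the long chain of the same heterotrimer, averaged 23.1 ± 7.97 CPM in hom and 13.4 ± 3.94 CPM in wt tumours, a log2 fold change of 0.75 ± 0.27 (adjusted p = 0.261). Without wt 1 and wt 2 these 3 estimates were 1.25 for Col6a2, 0.89 for Col6a1 and 0.98 for Col6a3, with adjusted p-values of 0.124, 0.138 and 0.127.

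Of the fibrillar chains, Col3a1 had a minimum of 107, a median of 139 and a maximum of 220 CPM in hom tumours. Its levels were 163, 140, 69.6, 136 and 82.7 CPM in het tumours, and 61.1, 99.9 and 131 CPM as minimum, median and maximum in wt tumours. All 6 hom tumours lay above the wt median and 4 above the highest wt tumour, yet the groups overlapped and the log2 fold change of 0.57 ± 0.24 had an adjusted p of 0.286. Col5a2 averaged 29.8 ± 10.998 CPM in hom and 19.0 ± 5.26 CPM in wt tumours, a log2 fold change of 0.63 ± 0.26 (adjusted p = 0.278). Col1a1 averaged 96.3 ± 32.3 CPM in hom and 69.6 ± 21.3 CPM in wt tumours, with a log2 fold change of 0.44 ± 0.25. Its partner Col1a2 had 0.25 ± 0.24. Col23a1, a transmembrane collagen of low level, averaged 2.57 ± 1.14 CPM in hom and 1.25 ± 0.485 CPM in wt tumours, a log2 fold change of 1.004 ± 0.454 (adjusted p = 0.300).

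The basement membrane chains Col4a1 and Col4a2 had log2 fold changes of 0.39 ± 0.25 and 0.46 ± 0.25 for hom versus wt, with adjusted p-values of 0.423 and 0.357. Col4a1 ranged over 78.1, 121 and 212 CPM (minimum, median and maximum) in hom tumours and 57.3, 94.9 and 127 CPM in wt tumours. The het tumours had 128, 123, 66.7, 94.2 and 91.0 CPM. The estimates for hom versus wt without wt 1 and wt 2 were 0.64 for Col4a1 and 0.72 for Col4a2, with adjusted p-values of 0.175 and 0.148. Col4a5 differed by 0.01 ± 0.33. Col18a1, which sits in basement membranes as well, had an estimate of 0.01 ± 0.15. Col4a5 and Col18a1 were at 0.21 and 0.20 without wt 1 and wt 2. Col18a1 was the steadiest tested collagen, with a within-genotype SD of 0.259 in log2 CPM.

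The lower estimates fell mainly on FACITs. Col9a3 had a minimum of 78.5, a median of 105 and a maximum of 168 CPM in hom tumours. The het tumours had 142, 93.5, 153, 177 and 90.7 CPM, and the wt tumours 83.6, 128 and 233 CPM as minimum, median and maximum. Of 6 hom tumours, 1 lay above the wt median, and the log2 fold change was −0.34 ± 0.24 (adjusted p = 0.459). Col9a1 averaged 1.05 ± 0.531 CPM in hom and 1.62 ± 1.17 CPM in wt tumours, a log2 fold change of −0.65 ± 0.48 (adjusted p = 0.476). Without wt 1 and wt 2, Col9a3 had −0.52 and Col9a1 −1.07, with adjusted p-values of 0.201 and 0.154. Col20a1 differed by −0.25 ± 0.32, and by −0.42 without wt 1 and wt 2. Col9a2 had an estimate of the opposite sign, with 30.2 ± 2.94 CPM in hom and 22.4 ± 7.44 CPM in wt tumours and a log2 fold change of 0.40 ± 0.22 (adjusted p = 0.370), which was 0.19 without wt 1 and wt 2.

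In het against wt tumours, 22 of 29 collagen genes also had a higher estimate (43.2% of all genes did), but with a median log2 fold change of 0.10. All 8 fibrillar genes were among them, with a median of 0.27. At an unadjusted p under 0.05 there was 1 gene, Col5a3, where 2.85% of all genes passed, 1.18% higher and 1.67% lower, and every collagen had an adjusted p of 0.999. Col5a3, a type V chain, had 16.0, 9.88, 3.61, 6.89 and 5.93 CPM in het tumours, against a minimum of 1.24, a median of 4.62 and a maximum of 6.37 CPM in wt tumours. Its log2 fold change was 0.93 ± 0.41, and 3 of 5 het tumours lay above every wt tumour. The count of 1 became 0 without het 1, het 2, wt 2, wt 4 or wt 5 in turn, where 0.634 to 1.14% of all genes were higher. It was 2 without wt 6 (all genes 1.77%) and 4 without het 6 (3.53%). Col23a1 differed by 0.75 ± 0.47, Col15a1, the other endostatin-like collagen, by −0.24 ± 0.36, and Col4a5 by −0.48 ± 0.35. Col3a1 differed by 0.24 ± 0.25, Col6a2 by 0.21 ± 0.34 and Col4a1 by 0.01 ± 0.26. Without wt 1 and wt 2, 19 of 29 collagens had a higher estimate (50.2% of all genes did), 17 of them in both fits, with a median of 0.22. The fibrillar genes then had 6 of 8 higher and the FACITs 2 of 7 in place of 4 of 7. The 1 gene at the unadjusted threshold was then Col6a4 in place of Col5a3, where 4.31% of all genes were higher and 3.02% lower. In that fit Col6a2 was at 0.54, Col4a1 at 0.26, Col23a1 at 1.14, Col4a5 at −0.29 and Col15a1 at −0.01. The median was also 0.27 without het 6 or wt 6, 0.22 without wt 4, 0.19 without wt 3 and 0.17 without het 3.

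In hom against het tumours, 19 of 29 collagen genes had a higher estimate (48.2% of all genes did), with a median log2 fold change of 0.24. No collagen had an unadjusted p under 0.05, where 2% of all genes did, 0.974% higher and 1.03% lower. DESeq2 and limma-voom each counted 1 higher (all genes 1.38% and 1.09%). The count was 2 without het 1, het 2 or hom 3 in turn, where 0.919 to 1.76% of all genes were higher. It was 1 without wt 1, wt 5, hom 2, hom 5 or het 6, where 0.645 to 1.7% were higher. The median was 0.13 without het 3 and 0.12 without het 6 or hom 6. All 5 type VI genes had higher estimates with a median of 0.53, and all 3 basement membrane genes with a median of 0.45, while 5 of 7 FACITs had lower ones. Col6a2 differed by 0.72 ± 0.34, Col6a1 by 0.56 ± 0.30 and Col4a2 by 0.45 ± 0.26. Col16a1 differed by −0.58 ± 0.47, Col11a2, a fibrillar chain of cartilage, by −0.56 ± 0.53 and Col9a1 by −0.60 ± 0.49. Col16a1 averaged 21.0 ± 10.2 CPM in hom and 31.4 ± 11.98 CPM in het tumours.

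**Figure D3:**
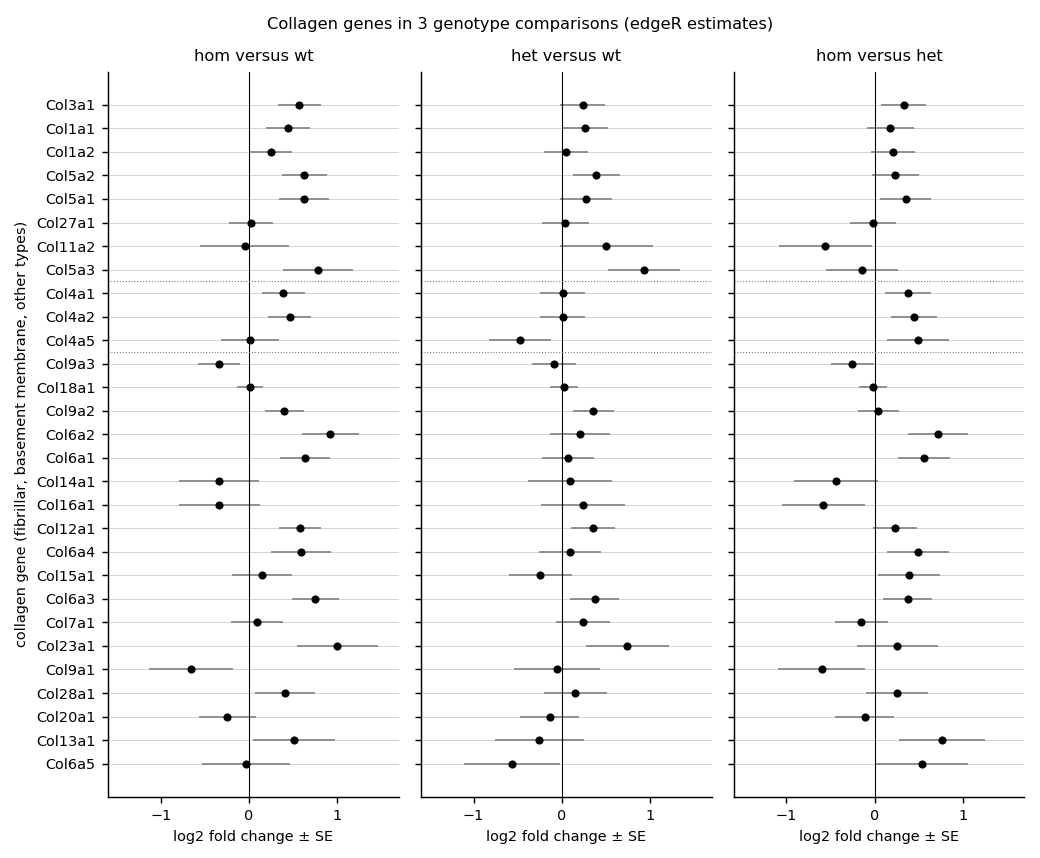
Log2 fold change with its standard error for each tested collagen gene in the 3 comparisons, ordered by class and level, with dotted lines between classes. For hom versus wt most points lie right of 0 (22 of 29), and the 7 left of it include Col9a1, Col9a3, Col14a1 and Col16a1.

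Ratios of RPKM were compared for chains that assemble with each other, and for Col3a1 to Col1a1, chains of different types. The log2 ratios, with 0.1 added to each RPKM, had exact two-sided permutation tests, adjusted over 15 tests. None passed an adjusted p of 0.05, and the smallest p that 6 against 6 tumours allow is 0.00216. The Col6a2 to Col6a1 ratio was 1.07, 0.956, 1.11, 1.07, 1.11 and 1.20 in hom 1 to hom 6, against 0.885, 1.05, 0.882, 0.920, 0.872 and 0.784 in wt 1 to wt 6. The groups overlapped only through hom 2 and wt 2. The difference was 0.28 on the log2 scale (exact permutation p = 0.00433, adjusted p = 0.0649). The het tumours had 1.11, 0.960, 0.819, 1.03 and 0.924, a difference to wt of 0.11 (exact permutation p = 0.260, adjusted p = 0.464). Without single tumours the hom to wt difference was 0.24 to 0.32.

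For type IV, the Col4a2 to Col4a1 ratio was nearly constant in hom tumours, 0.583 to 0.603. It was 0.541 to 0.591 in het and 0.449 to 0.693 in wt tumours. The difference of hom to het was 0.07 on the log2 scale (exact permutation p = 0.0173, adjusted p = 0.130). The Col1a1 to Col1a2 ratio had a median of 1.55 and a range of 1.14 to 1.85. In het against wt tumours it differed by 0.21 (exact permutation p = 0.0368, adjusted p = 0.179). Col6a3 to Col6a1 differed by 0.30 in the same comparison (exact permutation p = 0.0476, adjusted p = 0.179).

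Across the 17 tumours, partner chains of types I, IV, V and VI varied together. The type IX pairs tested showed no such relation past the threshold. Pearson's r of log2 CPM was 0.98 for Col6a1 with Col6a2 (Spearman's rho 0.97), 0.97 for Col4a1 with Col4a2 (0.96), and 0.96 for Col5a1 with Col5a2 (0.96). It was 0.92 for Col1a1 with Col1a2 (0.93) and 0.90 for Col6a1 with Col6a3 (0.87). Col1a1 with Col3a1, chains of different types that were also in the tested pairs, had 0.89 (0.93). Each of these 6 had a permutation p of 1e-05 for r, the smallest that 100000 permutations can give, and an adjusted p of 1.33e-05 over 8 pairs. For rho the adjusted p was 5.33e-05 for Col6a1 with Col6a3 and 1.6e-05 for the other 5. Without the 2 tumours farthest from the median of the first gene, r was between 0.89 and 0.97 for the 6 pairs, and with genotype means subtracted between 0.89 and 0.98. Col9a2 with Col9a3 had r = 0.36 and rho = 0.23 (permutation p = 0.160 and 0.368, adjusted p = 0.182 and 0.421), and r was 0.01 without wt 1 and het 6 and 0.57 with genotype means subtracted. Col9a1 with Col9a2 had r = 0.18 and rho = −0.01 (permutation p = 0.506 and 0.965). Col9a1 with Col9a3 was not among the pairs tested and had r = 0.67.

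Col14a1, Col16a1, Col9a3 and Col11a2 also varied together. These pairs were picked from the matrix of all 29 genes after their values were seen and are a description without a test. Col14a1 and Col16a1, both FACITs, had r = 0.93 and rho = 0.85, with r = 0.89 without the 2 tumours farthest from the median. Col9a3 had r = 0.84 with Col16a1 and 0.83 with Col14a1, and Col11a2 had r = 0.82 with Col16a1. By comparison r was 0.21 for Col1a1 with Col14a1, 0.33 for Col1a1 with Col16a1 and 0.07 for Col1a1 with Col9a3, while Col11a2 had r = 0.60 with Col1a1. Col1a1 had r = 0.96 with Col5a1. Of the other genes, the type VI chain Col6a4 was closest to Col6a2 (r = 0.88), as was Col23a1 (r = 0.80), and the multiplexins Col15a1 and Col18a1 had r = 0.72. The lowest r in the matrix was −0.61, between Col9a1 and Col6a4.

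**Figure D4:**
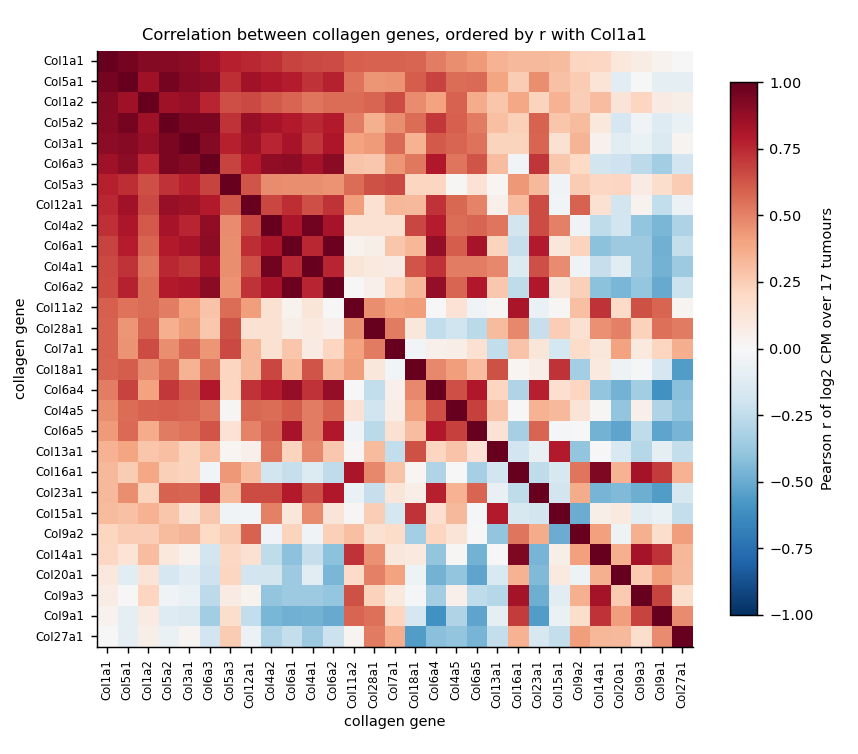
Pearson's r of log2 CPM between the 29 tested collagen genes over 17 large intestinal tumours, ordered by r with Col1a1. Types I, III and V, Col6a1, Col6a2, Col6a3, Col4a1, Col4a2 and the FACIT Col12a1 form a positive block at the upper left. Col6a4 and Col6a5 come later in the order. Col14a1, Col9a3 and Col9a1 at the lower right are positive with each other and with Col16a1.

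Col14a1, Col16a1 and Col11a2 spread widely within genotypes, and Col9a3 less. Col14a1 had a minimum of 11.8, a median of 22.6 and a maximum of 55.5 CPM in hom tumours. The het tumours had 32.5, 21.9, 54.6, 62.3 and 33.4 CPM, and the wt tumours 9.46, 34.3 and 83.5 CPM as minimum, median and maximum. Col16a1 had 8.10, 18.7 and 34.5 CPM in hom tumours (minimum, median and maximum) and 7.82, 23.1 and 61.7 CPM in wt tumours. The within-genotype SD in log2 CPM was 0.999 for Col11a2, 0.881 for Col16a1, 0.878 for Col14a1 and 0.434 for Col9a3, against a median of 0.516 over the 29 collagens and 0.331 over all genes tested.

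The lowest Col16a1 levels were those of wt 1, hom 3 and wt 2, with 7.82, 8.10 and 8.91 CPM, and the highest that of wt 6 with 61.7 CPM. Gata4 in the same tumours was 171, 47.3 and 179 CPM, and 0.282 CPM in wt 6. Over 17 tumours r of log2 CPM was −0.78 for Gata4 with Col16a1 (rho −0.80) and −0.72 for Gata4 with Col14a1 (rho −0.64), against −0.29 for Gata4 with Col1a1. Without wt 1 and wt 2 these were −0.67, −0.61 and −0.21. The relation was noticed in these tumours and carries no test. The small intestinal het 4, with Gata4 at 166 CPM, had Col16a1 at 27.3 CPM and Col14a1 at 29.9 CPM, inside the range of the other het tumours. Of 21 collagens over 1 RPKM, het 4 lay inside that range for 17, below it for Col5a3, Col12a1 and Col27a1 and above it for Col18a1. The share of all genes inside that range was not computed and het 4 is 1 tumour, so the count is no measure of likeness.

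**Figure D5:**
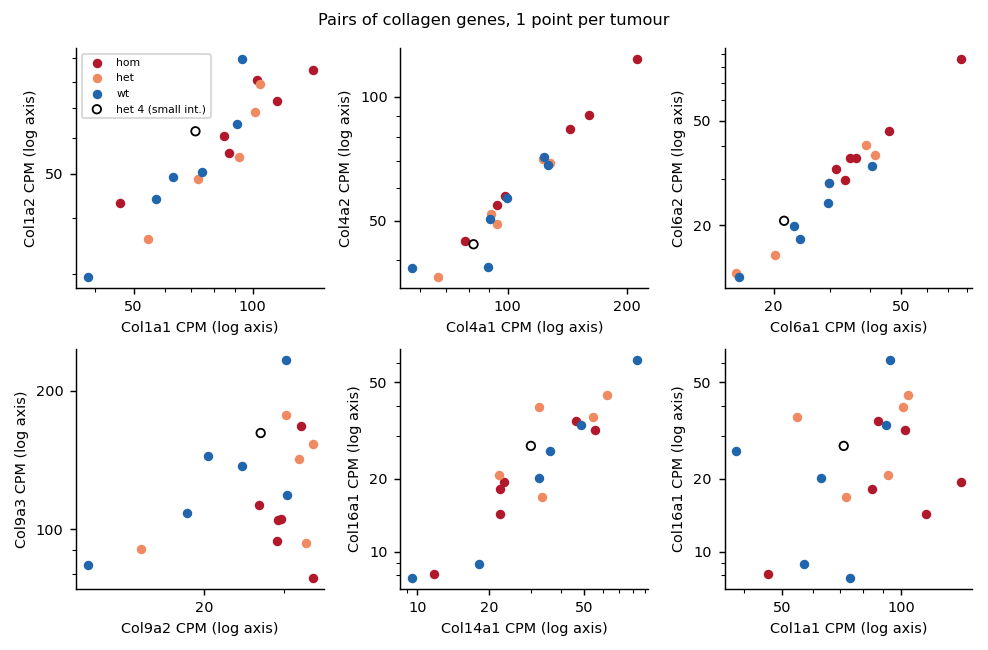
CPM of 6 pairs of collagen genes (log axes), 1 point per tumour, coloured by genotype, with the small intestinal het 4 as an open circle. The partner chains of types I, IV and VI and the pair Col14a1 and Col16a1 follow a line (r of 0.92, 0.97, 0.98 and 0.93), whereas Col9a2 with Col9a3 and Col1a1 with Col16a1 scatter (0.36 and 0.33).

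The collagens were next set beside marker lists of the cell types a tumour can hold (mean log2 CPM of each list, 174 relations, permutation tests adjusted over them). Only collagens were set against the lists. The share of all genes that would pass for each list was not computed, so the counts are not particular to collagens. For the fibroblast list, 12 of 29 collagens passed by r, all positive (Col4a2, Col6a1 and Col28a1 did not by rho, adjusted p = 0.0703, 0.119 and 0.0703). The highest were Col1a1 (r = 0.92, rho = 0.93) and Col1a2 (r = 0.92, rho = 0.95), each with an adjusted p of 0.000580 for both measures, and Col3a1 had r = 0.84 (rho = 0.84, adjusted p = 0.000870 and 0.00130). Without hom 3 and hom 6, the farthest from the median, r was 0.88 for Col1a1, 0.92 for Col1a2 and 0.87 for Col3a1. For the endothelium list 4 passed with positive r, among them Col4a2 (r = 0.78, rho = 0.81, adjusted p = 0.00667 and 0.00413) and Col4a1 (r = 0.74, rho = 0.76, adjusted p = 0.0104 and 0.00853), and 2 with negative r, Col9a1 (r = −0.67, rho = −0.75, adjusted p = 0.0260 and 0.0107) and Col27a1 (r = −0.65, rho = −0.35, adjusted p = 0.0405 and 0.408, and r = −0.41 without wt 2 and hom 6). For Col4a2 r was 0.74 without wt 2 and hom 6, for Col4a1 0.70 and for Col9a1 −0.74.

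For the leukocyte list 9 collagens passed with positive r, the highest being Col6a4 (r = 0.76, rho = 0.75, adjusted p = 0.00761 and 0.0127, and r = 0.70 without wt 4 and wt 5). For smooth muscle 1 passed, Col20a1 (r = 0.69, rho = 0.67, adjusted p = 0.0258 and 0.0302, and r = 0.52 without hom 3 and wt 5). None passed for epithelium or for enteric glia and Schwann cells. The mean log2 CPM of the epithelium list had an SD of 0.075 in hom, 0.16 in het and 0.28 in wt tumours. For glia it was 0.12, 0.32 and 0.17, and for fibroblasts 0.36, 0.29 and 0.26. A list that varies little leaves little room for a relation to show. Col9a3 passed for no list, with r = 0.22 for fibroblasts, −0.54 for endothelium, −0.08 for epithelium and 0.55 for glia (adjusted p = 0.0955). Col14a1 and Col16a1 likewise passed for none, with r of 0.29 and 0.39 for fibroblasts.

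The fibroblast markers themselves stood higher in hom than in wt tumours by estimate for 8 of 9 genes tested, with a median log2 fold change of 0.32 and 0 called, against 4 of 9 higher in het than in wt (median −0.05) and 8 of 9 in hom than in het tumours (median 0.34). In hom against wt tumours 5 of 9 were higher without wt 1 and wt 2, with a median of 0.33. Their summed level was 345 to 532 CPM in hom, 309 to 423 CPM in het and 327 to 437 CPM in wt tumours. Endothelial markers had 6 of 9 higher in hom than in wt (median 0.09), 0 of 9 in het than in wt (median −0.44) and 8 of 9 in hom than in het tumours (median 0.57). They had, without wt 1 and wt 2, 8 of 9 higher in hom than in wt (median 0.76) and 5 of 9 in het than in wt tumours (median 0.03). Their summed level was 72.1 to 183 CPM in hom, 52.0 to 105 CPM in het and 53.5 to 246 CPM in wt tumours. Smooth muscle markers had 3 of 8 higher in hom than in wt (median −0.13), 0 of 8 in het than in wt (median −0.43) and 7 of 8 in hom than in het tumours (median 0.12). Leukocyte markers had 4 of 6 higher in hom than in wt (median 0.15), and 5 of 6 with a median of 0.71 without wt 1 and wt 2. Epithelial markers had 2 of 8 higher in hom than in wt (median −0.05), but 5 of 8 with a median of 0.13 without wt 1 and wt 2. Glial markers had 1 of 4 higher in hom than in wt, with and without wt 1 and wt 2. With wt 1 and wt 2 included, 0 markers of any list were called. Of the listed markers, 1 leukocyte and 2 glial genes were at 0 in a hom tumour, 1 leukocyte and 2 glial genes in a het tumour, and 1 fibroblast, 3 leukocyte and 1 glial gene in a wt tumour. For all genes tested the share with a higher estimate was 45.7% for hom versus wt, 43.2% for het versus wt and 48.2% for hom versus het. Without wt 1 and wt 2 it was 50.6% for hom versus wt and 50.2% for het versus wt. The part of these cell type markers in the collagen differences was not tested.

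Genes that make, process and bind collagen were given by list, and none in these lists passed an adjusted p of 0.05 in any comparison. Of all genes tested, 45.7% had a higher estimate for hom versus wt, 43.2% for het versus wt and 48.2% for hom versus het. Without wt 1 and wt 2 the share was 50.6% for hom versus wt and 50.2% for het versus wt. In the list of chain modification and folding, 14 of 19 genes had lower estimates in hom than in wt tumours, with a median log2 fold change of −0.24. Among them P4ha1, a catalytic subunit of prolyl 4-hydroxylase, averaged 34.5 ± 9.02 CPM in hom and 48.5 ± 11.5 CPM in wt tumours, a log2 fold change of −0.52 ± 0.18 (adjusted p = 0.261). Serpinh1, the collagen chaperone HSP47, averaged 33.5 ± 10.7 CPM in hom and 47.2 ± 13.6 CPM in wt tumours, a log2 fold change of −0.52 ± 0.23 (adjusted p = 0.296). Plod3, a lysyl hydroxylase, differed by −0.45 ± 0.17. In het against wt tumours 13 of 19 were lower (median −0.21), with P4ha1 at −0.41 ± 0.19. Without wt 1 and wt 2, 14 of 19 were lower in hom than in wt tumours, 13 of them in both fits, with a median of −0.10.

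Secretion and propeptide removal had 7 of 12 genes higher in hom than in wt tumours, and 9 of 12 without wt 1 and wt 2. Bmp1, the procollagen C-proteinase, differed by 0.30 ± 0.14, and Pcolce2, an enhancer of that proteinase, by −2.10 ± 0.67 (adjusted p = 0.258). Without wt 1 and wt 2, Bmp1 was at 0.29 and Pcolce2 at −1.50. Crosslinking and fibril-associated genes had 11 of 14 higher, with a median of 0.28. The small proteoglycan decorin, Dcn, averaged 115 ± 26.1 CPM in hom and 74.7 ± 15.3 CPM in wt tumours, a log2 fold change of 0.60 ± 0.18 (adjusted p = 0.258). It is also on the fibroblast marker list. The crosslinking enzymes Loxl2 and Lox differed by 0.72 ± 0.26 and 0.94 ± 0.47, and the proteoglycan Prelp by −1.27 ± 0.58.

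Among receptors, 7 of 10 were higher in hom than in wt tumours with a median of 0.12 (6 of 10 and 0.26 without wt 1 and wt 2). The discoidin receptors Ddr1 and Ddr2 differed by −0.01 ± 0.11 and 0.23 ± 0.34 (−0.06 and 0.48 without wt 1 and wt 2). Of the collagen-binding integrin chains, Itga11 differed by 0.71 ± 0.39 and Itga10 by −0.77 ± 0.49 (1.05 and −1.17 without wt 1 and wt 2). All 5 degradation genes tested had higher estimates, with a median of 0.55. The cysteine protease Ctsk differed by 0.75 ± 0.32, the gelatinase Mmp9 by 0.82 ± 0.40 and Mmp14, a membrane-bound collagenase, by 0.13 ± 0.13 (0.01 without wt 1 and wt 2).

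The partners of type IV collagen had 10 of 11 higher estimates in hom than in wt tumours (median 0.34) and 11 of 11 in hom than in het tumours (median 0.29), against 6 of 11 in het than in wt tumours (median 0.07). The count for het versus wt was 9 of 11 without wt 1 and wt 2, with a median of 0.16. Nid1, the nidogen that ties laminin to type IV collagen, averaged 48.9 ± 21.1 CPM in hom, 30.1 ± 8.85 CPM in het and 25.9 ± 6.68 CPM in wt tumours. Its log2 fold change for hom versus wt was 0.89 ± 0.26 (adjusted p = 0.258). The laminin chain Lamb1 differed by 0.40 ± 0.20, and by 0.61 without wt 1 and wt 2. Hemidesmosome partners of Col17a1 had 7 of 8 higher (median 0.18), and 8 of 8 without wt 1 and wt 2 (median 0.38). In the TGF-beta list, 7 of 9 were higher, with Ctgf at 0.79 ± 0.27, Tgfbr1 at 0.45 ± 0.18, Tgfb1 at −0.17 ± 0.14 and Tgfb3 at −0.65 ± 0.29. Tgfb1 was at −0.04 without wt 1 and wt 2.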

How the data were processed

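RNA was sequenced from 18 tumours, 1 library each. Per the labels' protocols, RNA came from resected tumours and went into a stranded kit for total RNA (the molecule field says polyA RNA). The authors deposited raw counts per gene and RPKM values. The submitters' processing notes list mm10, Trimmomatic, TopHat and featureCounts (Subread 1.4.5-p1), without options or strand setting. The deposited RPKM equalled counts divided by length, library total and TMM factor to a relative difference of 5.65e-07.

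Counts were fitted with edgeR 4.0.16 (TMM, filterByExpr, robust quasi-likelihood test) in R 4.3.3 over the 17 large intestinal tumours with genotype as the term. P-values were adjusted over 14271 genes (threshold 0.05), and the standard error is the log2 fold change divided by the root of F. The fit was checked on simulated data. Correlations were computed in SciPy 1.17.1 on log2 CPM (prior count 2). DESeq2 1.42.0, limma-voom 3.58.1, RLE factors, no filter, Rn45s left out, only the genotypes compared, het 4 counted as het, a mouse number block, and fits without wt 1 and wt 2 or without single tumours were alternatives. Pathway and marker values without wt 1 and wt 2 were added after seeing the data. Gene positions came from GENCODE annotation of GRCm38, the build of mm10, and promoters from RefSeq. The smallest chi-square per degree of freedom between libraries was 20.3.

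Members and lists were chosen with earlier results of these data known. Named collagens were the 4 highest in mean RPKM of each class and, per comparison, the 3 with the smallest p in each direction at a mean of at least 1 CPM. From each pathway list up to 3 genes per direction were eligible by p, with Macrod2, Serpinh1, P4ha1, Lox, Ddr1, Ddr2, Mmp14 and Tgfb1 fixed. Other collagens, Gata4 and Tcfl5 were named after their values were seen.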

Additional observations from a re-analysis of the deposited data

Results flagged for a closer look

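Of 78 sets of values looked at, 3 had a tumour far from the others of its genotype by Dixon's test at 95%, which chance does in about 1 set in 20. Col9a2 was lowest in het 6 at 14.6 CPM, with 30.3 to 34.6 CPM in the other 4 large intestinal het tumours. Col5a3 was lowest in hom 3 at 2.66 CPM, with 6.98 to 10.1 CPM in the other 5 hom tumours. The collagen share of counts was highest in wt 6 at 0.12% (95% Wilson interval 0.118 to 0.121%, counting error only), with 0.0703 to 0.0835% in the other 5 wt tumours. This share is of all counts, and in wt 3 27.0% of these fell on Rn45s, which lowers its collagen share. In summed collagen CPM, scaled with TMM factors, wt 6 had 1161 and wt 3 963, so the gap depends on the scaling.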

How the results depend on the processing

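No collagen gene was called under any alternative. Counts of all genes called changed for hom versus wt to 22 with DESeq2 and 2 with the replicate block (mouse number), and without single tumours they were between 1 and 2, with 2 without hom 2 or hom 5. For hom versus het they became 0 with only the 2 genotypes compared and 0 with the replicate block. Same-numbered tumours did not deviate together (correlations of −0.45 to 0.33), so the numbers were not taken as pairs.

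The counts of collagens at an unadjusted p under 0.05 were added after seeing the data. For hom versus wt the higher ones numbered 2 to 11 without single tumours, where 4.16 to 9.44% of all genes were higher, and the lower ones 2 without wt 1 and wt 2, where 13.0% of all genes were lower. For het versus wt the higher ones were 0 with limma-voom (all genes 1.19%), 0 with het 4 counted as het (0.971%), 0 with the replicate block (0.554%) and 0 to 4 without single tumours (0.634 to 3.53%). For hom versus het they were 1 with DESeq2 (all genes 1.38%), 1 with limma-voom (1.09%), 1 with no filter (1.17%), 1 with Rn45s left out (1.06%), 2 with het 4 counted as het (1.73%) and 0 to 2 without single tumours (0.5 to 1.76%). The cause of these changes was not tested. The collagen median stayed between 0.30 and 0.51 for hom versus wt, 0.10 and 0.27 for het versus wt and 0.12 and 0.33 for hom versus het without single tumours. Of 520 values for named collagens per comparison, 13 changed sign for hom versus wt, 28 for het versus wt and 9 for hom versus het, and no call changed.

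Fold changes of collagens under 1 RPKM rest on few counts.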
